A study of Homo sapiens with 12 samples.

Results

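NQO1, TXNRD1, SRXN1, OSGIN1, PGD, TALDO1, ME1, ABCC1 and MAFG are 9 genes listed as targets of the transcription factor NRF2 that act in redox reactions, NADPH supply, export and transcription. They were taken by symbol from a table of estimated counts for 36459 gene symbols, and all 9 were found in it. The 12 libraries are poly-A RNA sequencing of HEK293, an established line of human embryonic kidney cells transformed with adenovirus DNA. Of these, 3 libraries each came from cells given vehicle, oleic acid (a monounsaturated fatty acid), FAC (ferric ammonium citrate, the salt of iron that the series uses to induce ferroptosis) or both together. The series asks how oleic acid alters ferroptosis induced by FAC, a death of cells by iron-driven lipid peroxidation. The sources used here give no dose or time, all groups are 1 cell line, and the ammonium and citrate of the salt cannot be told apart from its iron.

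NRF2, encoded by NFE2L2, is held at a low level by KEAP1, an adaptor that delivers it to a ubiquitin ligase for degradation. Electrophiles and oxidants modify KEAP1, so that NRF2 accumulates, pairs with a small MAF protein and binds antioxidant response elements, while the repressor BACH1 competes for the same elements. Its targets include enzymes that make NADPH and enzymes that spend it on reducing thioredoxin, peroxides and quinones, which is why the pathway is studied as a defence against lipid peroxidation.

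The core of the antioxidant response element, searched here as TGACNNNGC on both strands, shows where the promoters of these genes hold letters of that kind. RefSeq promoter windows (GRCh38.p14) were matched by symbol for 8 of the 9 genes, ABCC1 being the exception, and TXNRD1 had 2 windows. In the 250 bases before the start sites, 4 of the 9 windows held 1 match each, in TXNRD1, PGD and ME1. Across all genes 3830 of 35116 such windows, or 10.9%, held at least 1 match. Each match is shown 5′ to 3′ on the strand of the gene, with 10 bases on either side and the matching letters in capitals.
TXNRD1, upstream start site, chr12:104215670-104215698, plus strand: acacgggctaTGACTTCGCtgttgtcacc
TXNRD1, downstream start site, chr12:104286920-104286948, plus strand: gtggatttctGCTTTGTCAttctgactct
PGD, chr1:10398853-10398881, plus strand: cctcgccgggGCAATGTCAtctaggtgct
ME1, chr6:83431170-83431198, minus strand: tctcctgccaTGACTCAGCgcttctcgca
The first and the last read TGAC first on the strand of the gene, and the other 2 hold the motif on the opposite strand. The start sites are those of RefSeq. The downstream TXNRD1 match lies past the GENCODE starts of TXNRD1-205 (104286682) and TXNRD1-214 (104286881). The PGD match likewise lies past the GENCODE start of that gene (10398592). The windows of NQO1, SRXN1, OSGIN1, TALDO1 and MAFG held no match, which says only that these letters are not in those windows. A match is a description of the sequence and was not tested for binding.

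The libraries held 14098216 to 18717397 counts each. The filter on low counts left 14209 genes to test. TFRC, the transferrin receptor that cells lower when iron is plentiful, fell with FAC averaged over both oleic acid states (log2 fold change -2.73, SE 0.18, adjusted p = 3.8e-06 in edgeR). Of the markers of this line, KRT8 stood at 76.2 to 154 CPM (counts put on 1 common library size by TMM) and the renal factor PAX2 at 4.30 to 7.15. KRT18 stood at 43.9 to 118 CPM, LHX1 at 12.9 to 22.25 and EPCAM at 5.73 to 12.35. The epithelial markers KRT19 (1.16 to 4.945 CPM) and CDH1 (1.14 to 4.58) were low. Summed markers reached at most 18.95 CPM for fibroblasts (5 genes), 2.05 for endothelium (4), 5.46 for blood cells (5, with HBB at 0 in all libraries) and 0.454 for hepatocytes (3). COL1A1 made up most of the fibroblast sum, at 9.41 to 17.88 CPM, and so stood above PAX2. The 7 epithelial and kidney markers summed to 157 to 234 CPM with vehicle, 158 to 283 with oleic acid, 160 to 235 with FAC and 222 to 317 with both. VIM and the neurofilament genes NEFM and NEFL summed to 695 to 974, 733 to 1088, 754 to 1105 and 1027 to 1584 CPM in the same order, and the part of these markers in the results was not tested. In 2 libraries, the third of oleic acid and the third of oleic acid + FAC, long transcripts were relatively low. Over genes (not independent replicates), the departure of a library from its group had a correlation with log2 length of -0.52 and -0.39 in these, against -0.23 to 0.36 in the other 10. Mitochondrially encoded mRNAs took 12.1% of the counts in the second of these and 3.33% to 7.50% elsewhere.

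Per transcript length, the enzymes of the pentose phosphate pathway were the most abundant of the 9 genes in vehicle cells. On the TPM scale (counts per base of annotated length, scaled to a common total here) TALDO1 stood at 194 to 204 over the 3 libraries, PGD at 186 ± 7.95 (SD, n = 3) and TXNRD1 at 106 ± 9.62. Next came ME1 at 32.6 ± 1.98 TPM, SRXN1 at 24.7 ± 1.80, ABCC1 at 20.2 ± 2.11 and MAFG at 11.8 ± 2.33. NQO1 at 4.97 ± 0.25 TPM and OSGIN1 at 0.381 ± 0.27 were the lowest. No 2 neighbours in this order overlapped over the vehicle libraries, although the lowest TALDO1 and the highest PGD values nearly met. With oleic acid the order of the means was the same, and the ranges of ME1 and SRXN1, of SRXN1 and ABCC1 and of ABCC1 and MAFG overlapped. With FAC the mean of SRXN1 (17.5 ± 0.92 TPM) lay under that of ABCC1 (20.4 ± 3.98), and SRXN1 overlapped both ABCC1 and MAFG while TALDO1 overlapped PGD. With both agents the mean of SRXN1 (14.7 ± 3.44) again lay under that of ABCC1 (15.0 ± 5.40). There TALDO1 overlapped PGD, ABCC1 overlapped SRXN1 and MAFG, and MAFG overlapped NQO1. The place of ABCC1 is uncertain because only 22.0% of its counts lay on transcripts matched to the annotation that gave its length.

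SRXN1 was the 1 member of the 8 tested that changed with FAC, and it fell. It encodes sulfiredoxin, which restores peroxiredoxins that peroxide has overoxidised. Its level was 34.5, 33.3 and 38.0 CPM in the vehicle libraries and 37.1, 35.2 and 39.9 CPM in those with oleic acid. It was 27.6, 22.4 and 29.3 CPM with FAC and 27.8, 22.0 and 29.9 CPM with oleic acid + FAC. Each of the 6 libraries with FAC lay below each of the 6 without, and the 2 groups with FAC overlapped each other, as did the 2 without. Averaged over both oleic acid states, the log2 fold change of SRXN1 with FAC was -0.46 (SE 0.098, 95% interval -0.67 to -0.24); its level fell by 27.1% (adjusted p = 0.0126 in edgeR, over all genes). Of all genes 8.76% changed in this comparison and 5.48% were lower, against 1 of the 8 members tested, so the count of members lies near the share of all genes. The call held in all 19 alternative fits, at adjusted p from 3.24e-04 to 0.0411, including those that left out each library in turn and the pair of libraries that stand apart. In bulk RNA, fewer cells that express a gene and less of its RNA per cell cannot be told apart.

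Taken 1 pair of groups at a time, the difference in SRXN1 did not pass the test in the edgeR fit with neither a replicate block nor the length trend removed. The log2 fold change was -0.42 (SE 0.14, adjusted p = 0.203) for FAC against vehicle, where 1.19% of genes changed. There edgeR called it with the replicate block (-0.42, adjusted p = 0.0393) and with length trend removed and block (-0.39, adjusted p = 0.0156). Replicate numbers were not taken to pair these groups. With oleic acid present the log2 fold change was -0.49 (SE 0.14, adjusted p = 0.0912) for oleic acid + FAC against oleic acid, where 2.21% of genes changed. It was called there by DESeq2 (-0.48, adjusted p = 0.0347), by edgeR with the length trend removed (-0.47, adjusted p = 0.0462) and by edgeR with the replicate number as a block (-0.50, adjusted p = 0.0151), a fit that called 740 of the 14209 genes against 314 without the block. In this comparison same-numbered libraries deviated together, with correlations of 0.30 to 0.61. The highest was between the third libraries, which stand apart by transcript length. Whether the shared deviations reflect paired cultures or a shared length trend was not tested. Against vehicle, oleic acid + FAC gave -0.41 (SE 0.14, adjusted p = 0.118). This too was called by edgeR with the block (-0.42, adjusted p = 0.0240) and with length trend removed and block (-0.40, adjusted p = 0.00912). These comparisons share libraries and are set side by side only. The FAC effects with and without oleic acid differed by -0.08 (95% interval -0.50 to 0.35, adjusted p = 1), an interval that reaches beyond the size of the fall itself on the lower side. SRXN1 lies on chromosome 20 at 646615 to 653370 on the minus strand of GRCh38 and has 1 annotated transcript, of 2698 bases. The readthrough gene AL121758.1 overlaps it on the same strand and had 0 counts in every library.

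**Figure D1:**
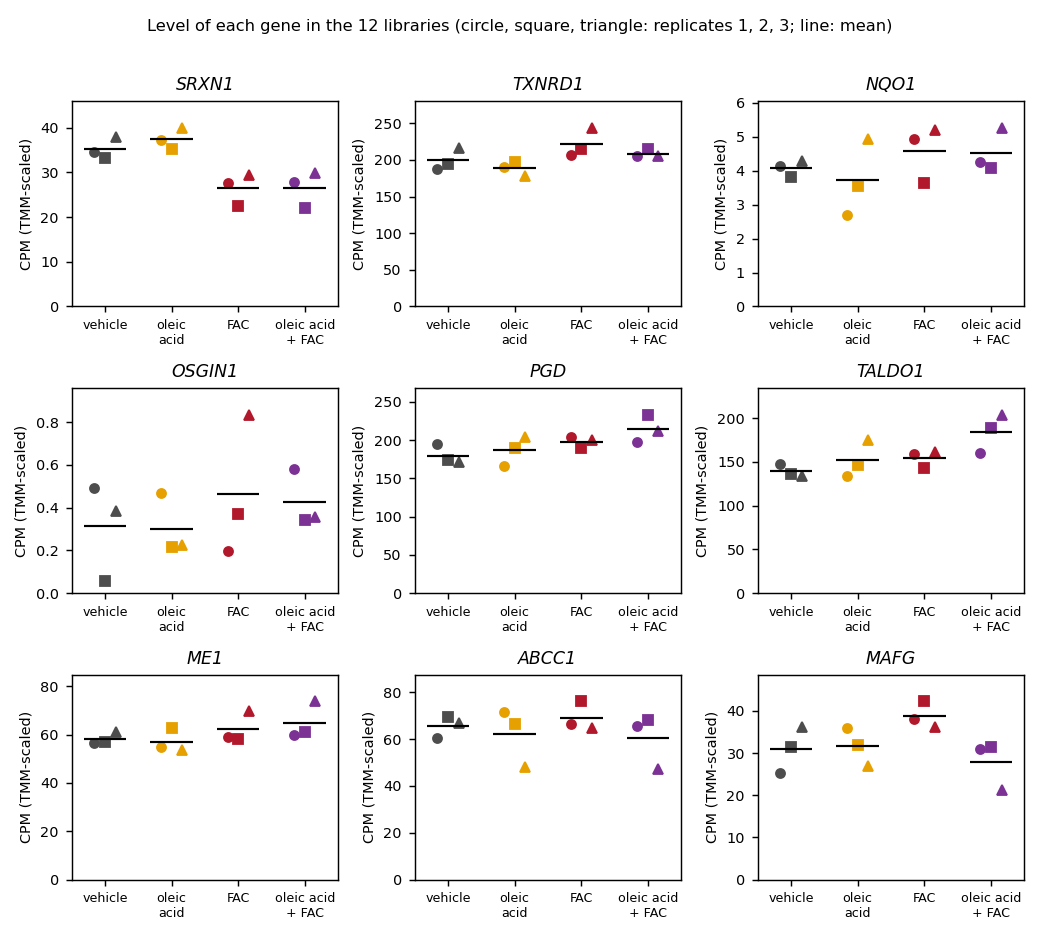
Levels of the 9 genes in CPM (vertical axes) in each of the 12 libraries, by group, with circle, square and triangle for replicates 1, 2 and 3 and a line for their mean. SRXN1 is the gene whose 6 libraries with FAC (22.0 to 29.9 CPM) all lie below the 6 without (33.3 to 39.9 CPM).

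The enzymes that spend NADPH on redox reactions did not pass the test. TXNRD1, the cytosolic thioredoxin reductase, a selenoprotein, stood at 188, 194 and 216 CPM with vehicle and 190.0, 198 and 178 with oleic acid. With FAC it stood at 207, 215 and 243 CPM, and with both agents at 205, 214 and 206. The groups with and without FAC overlapped across the 6 libraries each, and the log2 difference with FAC averaged over both oleic acid states was 0.15 (SE 0.073, 95% interval -0.01 to 0.31, adjusted p = 0.239). Within cells given oleic acid, all 3 libraries with FAC lay above the 3 without (0.14, adjusted p = 0.525). TXNRD1 lies on chromosome 12 at 104215779 to 104350305, plus strand.

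NQO1 reduces quinones straight to hydroquinones and is a widely used readout of NRF2 activity. It was low in these cells, with 46 to 87 counts a library. Its level was 4.14, 3.82 and 4.30 CPM with vehicle, 2.69, 3.54 and 4.93 with oleic acid, 4.94, 3.63 and 5.19 with FAC and 4.25, 4.09 and 5.25 with both. All 4 groups overlapped, and the difference with FAC was 0.23 on the log2 scale (SE 0.17, adjusted p = 0.459). Its 95% interval, -0.14 to 0.60, is the widest of the 8 members tested for the averaged FAC effect. NQO1 lies on chromosome 16 at 69706996 to 69726951, minus strand.

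The 3 members that serve NADPH supply had positive FAC differences that did not pass the test. PGD, the phosphogluconate dehydrogenase of the oxidative pentose phosphate pathway, stood at 195, 174 and 171 CPM with vehicle and 167, 189 and 205 with oleic acid. With FAC it stood at 204, 190 and 200.2 CPM and with both agents at 197, 233 and 212. The averaged FAC difference of PGD was 0.17 (SE 0.079, 95% interval -0.0031 to 0.34, adjusted p = 0.220), and in oleic acid + FAC all 3 libraries lay above the vehicle libraries (0.25, adjusted p = 0.207). PGD lies on chromosome 1 at 10398592 to 10420144, plus strand.

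TALDO1, the transaldolase that links the pentose phosphate pathway to glycolysis, came nearest to a call after SRXN1. It stood at 147, 136 and 134 CPM with vehicle, 134, 147 and 175 with oleic acid, 159, 143 and 161 with FAC and 160.4, 188 and 204 with both agents. The 3 libraries with both agents lay above the 3 with vehicle, and the other pairs of groups overlapped. Against vehicle, oleic acid + FAC gave a log2 difference of 0.40 (SE 0.13, 95% interval 0.13 to 0.67, adjusted p = 0.0967), where 3.07% of all genes changed. DESeq2 called this difference (0.42, adjusted p = 0.0274), and so did edgeR without the third oleic acid library (0.40, adjusted p = 0.0459). With the replicate block and the length trend kept, edgeR called it as well (0.40, adjusted p = 0.0463). With the length trend removed the difference was only 0.21 on the log2 scale, and it was not called unless the replicate block was added. Averaged over both oleic acid states, TALDO1 differed with FAC by 0.21 (SE 0.089, adjusted p = 0.163). The averaged difference was called without the third oleic acid library (0.27, adjusted p = 0.0487) and without the pair that stands apart (0.24, adjusted p = 0.0451), a fit in which 14.9% of genes changed. TALDO1 lies on chromosome 11 at 747329 to 765024, plus strand.

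ME1, the cytosolic malic enzyme, makes NADPH from malate. Its level was 56.5, 56.9 and 61.1 CPM with vehicle, 54.8, 62.7 and 53.4 with oleic acid, 59.2, 58.1 and 69.8 with FAC and 59.6, 61.1 and 73.8 with both agents. The groups overlapped, and the averaged FAC difference was 0.14 (SE 0.085, 95% interval -0.04 to 0.33, adjusted p = 0.332). ME1 lies on chromosome 6 at 83210389 to 83431071, minus strand.

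ABCC1, which exports glutathione conjugates from the cell, and MAFG, a small MAF partner of NRF2, had averaged FAC differences near 0 and a wide spread within groups. ABCC1 stood at 60.5, 69.5 and 66.9 CPM with vehicle, 71.6, 66.6 and 48.0 with oleic acid, 66.5, 76.1 and 64.9 with FAC and 65.5, 68.0 and 47.4 with both. Its 2 lowest values came from the pair of libraries that stand apart, and its averaged FAC difference was 0.02 (SE 0.12, 95% interval -0.24 to 0.27, adjusted p = 0.957). MAFG stood at 25.3, 31.5 and 36.3 CPM with vehicle, 36.0, 31.9 and 26.9 with oleic acid, 38.0, 42.3 and 36.2 with FAC and 31.0, 31.6 and 21.2 with both. MAFG was lower in every library with both agents than in every library with FAC alone, by 0.48 on the log2 scale (SE 0.18, unadjusted p = 0.0183), which did not pass the test over all genes (adjusted p = 0.707). Its FAC difference was 0.32 without oleic acid (SE 0.18, adjusted p = 0.525), the highest of the 8 members in that comparison, and -0.18 with it (SE 0.18, adjusted p = 0.652), so that the average was 0.07 (SE 0.12, adjusted p = 0.783). SIRT7 overlaps MAFG on the same strand with 150 to 254 counts a library, and counts of the shared stretch may be divided between the 2. ABCC1 lies on chromosome 16 at 15949577 to 16143074, plus strand, and MAFG on chromosome 17 at 81918270 to 81927714, minus strand.

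Members of different transcript length departed in different directions in the 2 libraries that stand apart. Against the mean of the first and second library of the group, the third oleic acid library was higher by 0.32 (log2) for TALDO1, whose transcripts average 1316 bases, and lower by 0.52 for ABCC1, with 6149 bases. In the third oleic acid + FAC library the departures were 0.23 for TALDO1, -0.49 for ABCC1 and -0.56 for MAFG, with 5008 bases. The length of ABCC1 rests on the 22.0% of its counts that lay on matched transcripts. In these libraries, in the same order, ME1 (3371 bases) departed by -0.13 and 0.29, and PGD (1830 bases) by 0.20 and -0.02. NQO1 (1553 bases) departed by 0.66 and 0.33, and TXNRD1 (3564 bases) by -0.13 and -0.03. The third vehicle library departed by -0.08 for TALDO1, 0.04 for ABCC1 and 0.36 for MAFG. SRXN1, with 2698 bases, departed upward in the third library of all 4 groups, by 0.14 to 0.27. The part of transcript length in the differences between groups was not tested beyond the fits in which its trend was removed.

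**Figure D2:**
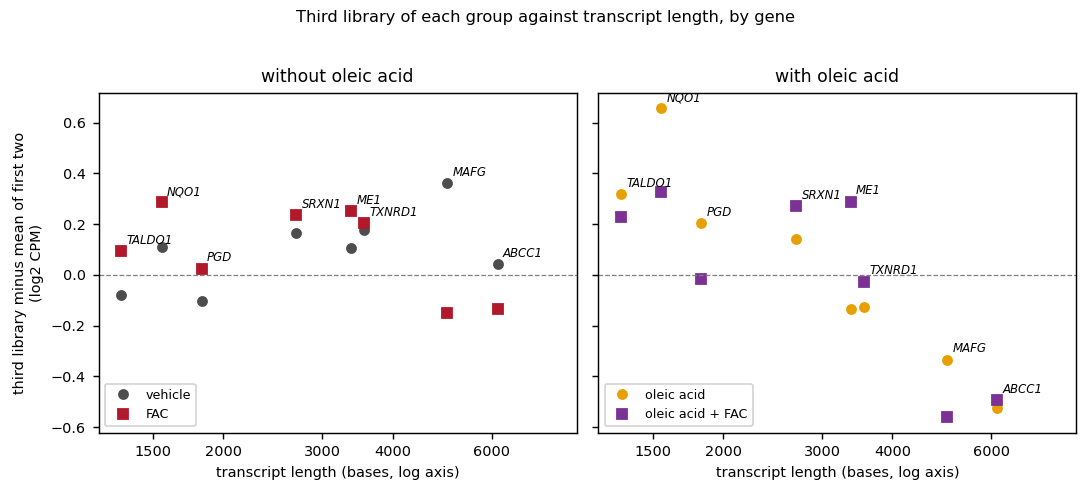
Departure of the third library from the mean of the first 2 of its group (vertical axis, log2) against mean transcript length (horizontal axis, bases, log axis) for the 8 members tested, with 1 symbol per group. In oleic acid and oleic acid + FAC the shortest member, TALDO1, lies above 0 (0.32 and 0.23) and the longest, ABCC1, below it (-0.52 and -0.49). The length of ABCC1 rests on 22.0% of its counts, and ME1 and PGD change sign between these 2 groups.

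OSGIN1, a growth inhibitor induced by oxidative stress, was near the limit of detection. It had 1 to 14 counts a library, or 0.058 to 0.836 CPM, where 3 counts amount to 0.160 to 0.213 CPM. It did not pass the filter on low counts. A fit without that filter gave a FAC difference of 0.53 (SE 0.52, adjusted p = 0.714), so a difference was not detectable at this depth. AC009119.2 overlaps OSGIN1 on the same strand with 1 to 12 counts a library. OSGIN1 lies on chromosome 16 at 83948282 to 83966332, plus strand.

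Over the 8 members tested, 7 had a positive averaged FAC difference, with SRXN1 the exception, and their median was 0.15 on the log2 scale, beside 0.0045 over all genes. At an unadjusted p under 0.05 there were 2 members, SRXN1 and TALDO1, and 3344 of the 14209 genes. In FAC against vehicle the median of the members was 0.14, and 0 were called by edgeR or DESeq2, with 1 member and 1715 genes at an unadjusted p under 0.05. In oleic acid + FAC against oleic acid the median was 0.16, and 0 were called in edgeR, with 2 members and 2285 genes at an unadjusted p under 0.05. DESeq2 called 1 member there, and 775 of 21909 genes. In oleic acid + FAC against vehicle the median was 0.10, with 0 called in edgeR and 3 members and 3169 genes at an unadjusted p under 0.05. DESeq2 called 1 member there, and 1248 of 21909 genes. The 95% intervals of the averaged FAC differences reached from 0.16 to 0.37 on either side of the estimate. Changes larger than these half-widths can still miss the call, which is adjusted over all genes, as the difference of TALDO1 (0.21) did. Positive differences and groups that do not overlap were not counted over all genes. Whether the members differ from all genes as a set was not tested.

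**Figure D3:**
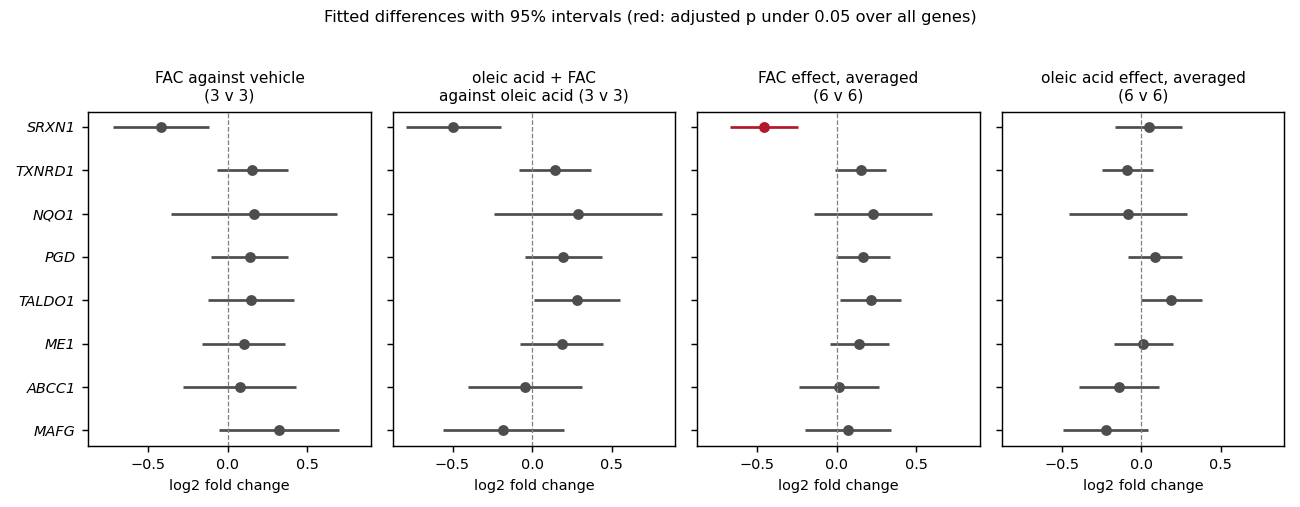
Log2 fold changes of the 8 members tested with 95% intervals (horizontal axis) for 4 comparisons, from the fit of all 12 libraries. The averaged FAC effect of SRXN1 (-0.46) is the one that passed the test over all genes.

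No member was called in the comparisons that ask about oleic acid. In oleic acid against vehicle, edgeR called 0 members and 0 of the 14209 genes (0% of all genes), with 0 members and 118 genes at an unadjusted p under 0.05, and DESeq2 called 0 of both. The 8 members differed by -0.14 (NQO1) to 0.12 (TALDO1) on the log2 scale. In oleic acid + FAC against FAC, edgeR called 0 members and 0 genes, with 1 member (MAFG) and 576 genes at an unadjusted p under 0.05, and DESeq2 called 1 gene and 0 members. Averaged over both FAC states, the members ran from -0.22 for MAFG (SE 0.12, adjusted p = 0.688) to 0.19 for TALDO1 (SE 0.089, adjusted p = 0.688). There, edgeR called 0 members and 0 genes, with 0 members and 617 genes at an unadjusted p under 0.05, and DESeq2 called 0 members and 3 genes.

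For SRXN1, the averaged oleic acid difference was 0.05 (95% interval -0.17 to 0.26), and between the 2 groups with FAC it was 0.01 (95% interval -0.29 to 0.31). The interaction of oleic acid and FAC was called for 0 members and 0 genes by edgeR, with 0 members and 116 genes at an unadjusted p under 0.05, and DESeq2 called 0 of both. The largest interaction estimate was that of MAFG, at -0.50 (SE 0.25, 95% interval -1.04 to 0.03, adjusted p = 1).

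At the level of transcripts, 27 transcripts of the members passed the filter and 0 were called by edgeR for either averaged effect, with 4 for FAC and 2 for oleic acid at an unadjusted p under 0.05. Of all 51464 transcripts tested, 4308 and 2288 had such a p, and 0.299% changed with FAC and 0.00194% with oleic acid. The only annotated transcript of SRXN1, SRXN1-201, carries the same counts as the gene and differed by -0.46 (SE 0.11), with an adjusted p of 0.155 in edgeR over the larger number of transcripts. DESeq2 called SRXN1-201 with FAC (-0.46, adjusted p = 0.0354), named here after its value was seen, among 1104 of 126138 transcripts. With oleic acid it called no transcript of the members and 272 over all. ME1 also has 1 transcript, and 1 transcript held 95.2% of the PGD counts, 80.0% of those of TALDO1 and 99.0% of those of MAFG.

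TXNRD1 was divided over 17 transcripts with counts, and its counts were spread over several of them. TXNRD1-212 held 23.0% of its counts, TXNRD1-205 held 22.2% and TXNRD1-208 held 19.8%. TXNRD1-208 is the one that begins at the upstream start site, whose promoter holds the first motif shown above. Its share of the TXNRD1 counts was 25.7%, 23.1% and 8.08% with vehicle and 2.12%, 22.1% and 57.7% with oleic acid. It was 17.1%, 16.2% and 25.2% with FAC and 8.15%, 7.86% and 42.1% with both. These shares spread more within groups than between them, and the 2 highest came from the pair of libraries that stand apart. Estimated counts divide reads from shared exons between transcripts, which limits such shares.

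**Figure D4:**
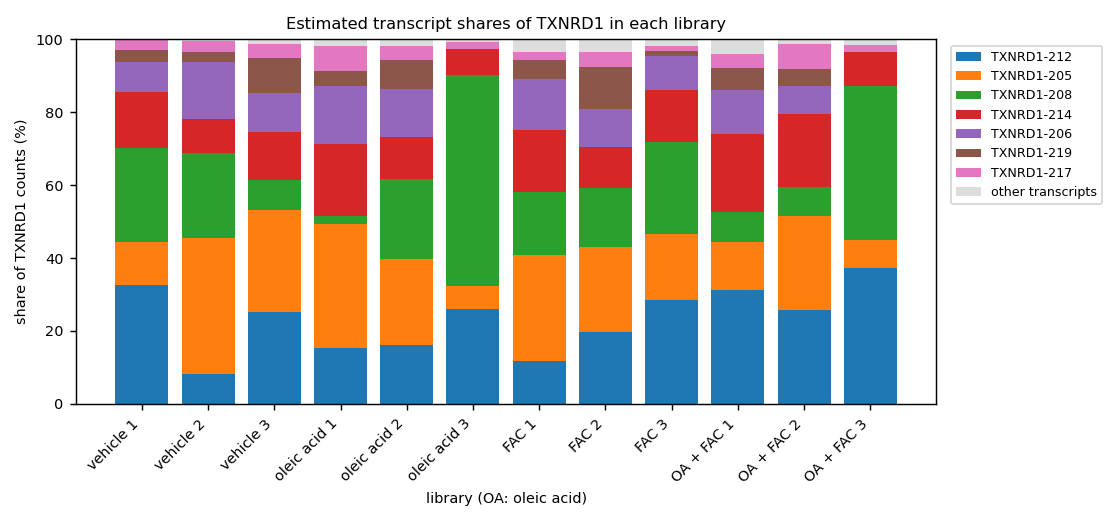
Share of the estimated TXNRD1 counts on each transcript (vertical axis, %) in each of the 12 libraries. TXNRD1-208, with the upstream start, ranges from 2.12% to 57.7% within the oleic acid group alone.

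For each member, the gene most like it was taken as that with the highest Pearson correlation in log2 CPM over the 12 libraries, among about 10230 genes whose log2 CPM averaged 3 or more. For SRXN1 it was DNAJB1, a heat shock J-domain chaperone (r = 0.977). DNAJB1 stood at 120 ± 10.0 CPM with vehicle, 125 ± 23.5 with oleic acid, 74.0 ± 15.6 with FAC and 73.5 ± 14.1 with both (SD, n = 3). The gene most like TALDO1 was RPL4, a ribosomal protein gene (r = 0.985), and that most like ABCC1 was PLCE1, a phospholipase gene (r = 0.979). It was PPP2R2A for TXNRD1 (r = 0.949), MAGI3 for MAFG (r = 0.934), HDHD2 for ME1 (r = 0.915) and GOT1 for NQO1 (r = 0.90). Among the members, PGD was most like TALDO1 (r = 0.898) and ABCC1 most like MAFG (r = 0.837). These values describe 12 libraries, 2 of which stand apart by transcript length, and each nearest gene was chosen as the highest of many.

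The other genes of the pathway were read from 7 lists, which share some genes, for the averaged FAC effect, in which 465 of the genes tested rose and 779 fell. Of 13 genes that control NRF2, all tested, 1 rose and 1 fell, with a list median of 0.06 beside 0.0045 over all genes. KEAP1 fell by 0.28 on the log2 scale (SE 0.077, adjusted p = 0.0418). It stood at 55.3 to 60.2 CPM with vehicle, 53.4 to 64.0 with oleic acid, 43.0 to 51.7 with FAC and 47.9 to 50.2 with both, so the groups with FAC lay below those without. GSK3B, a kinase that marks NRF2 for degradation, rose by 0.29 (SE 0.078, adjusted p = 0.0330). The call of KEAP1 was lost in 11 of the 12 fits that left out 1 library (all but the third of FAC), at adjusted p up to 0.103, with RLE scaling (0.0546) and with no filter on low counts (0.101). That of GSK3B was lost in 9 of 12 (all but the first and the third of oleic acid and the third of oleic acid + FAC), at adjusted p up to 0.0924, and with no filter on low counts (0.0725). The mRNA of NRF2 itself, NFE2L2, differed by 0.12 (SE 0.077, adjusted p = 0.377) and that of BACH1 by 0.06 (SE 0.12, adjusted p = 0.813).

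In the CNC and small MAF family, 7 of 8 genes were tested, 1 rose and 1 fell, with a list median of 0.12. MAFK, a small MAF partner like MAFG, rose by 0.55 (SE 0.082, adjusted p = 0.00159), and its call held in all 19 alternatives. In edgeR, MAFK was not called in FAC against vehicle (0.50, adjusted p = 0.0586), though 7 of the 19 alternatives called it. It was called in oleic acid + FAC against oleic acid (0.59, adjusted p = 0.0222), and in 7 of the 12 fits that left out 1 library. MAFK stood at 21.3, 20.6 and 17.4 CPM with vehicle, 21.2, 19.4 and 22.3 with oleic acid, 29.3, 27.4 and 27.2 with FAC and 30.8, 29.7 and 34.2 with both. Every library with FAC lay above every library without it, which was not so for MAFG. NFE2L3, a relative of NRF2, fell by 0.32 (SE 0.089, adjusted p = 0.0434), a call lost in 10 of the 12 fits that left out 1 library (all but the third of oleic acid and the first of oleic acid + FAC), at adjusted p up to 0.116, with RLE scaling (0.0512) and with no filter on low counts (0.0751).

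Of 40 other NRF2 targets 35 were tested, 1 rose and 0 fell, with 28 positive differences and a list median of 0.15, beside 0.0045 over all genes. The 1 was KLF9, a zinc finger transcription factor that rose by 0.67 (SE 0.089, adjusted p = 7.6e-04) and was called in all 19 alternatives. KLF9 stood at 67.1 to 76.9 CPM with vehicle, 53.2 to 69.1 with oleic acid, 105 to 113 with FAC and 89.8 to 115 with both. It was called in FAC against vehicle (0.63, adjusted p = 0.0318) and in oleic acid + FAC against oleic acid (0.71, adjusted p = 0.0145). KLF9 lost the first of these calls in 8 of the 12 fits that left out 1 library (any of vehicle or FAC, or the second of oleic acid or of oleic acid + FAC), at adjusted p up to 0.160. It lost the other in 2 of 12 (the first or the second of oleic acid + FAC), at adjusted p up to 0.0663. Well-known targets did not pass: GCLM, of glutathione synthesis, differed by 0.17 (adjusted p = 0.307), HMOX1, the heme oxygenase, by 0.31 (adjusted p = 0.551), and GSR, the glutathione reductase, by 0.06 (adjusted p = 0.655). SLC7A11, the cystine importer, differed by -0.51 (SE 0.15, adjusted p = 0.0559). SLC7A11 was called in 7 of the 19 alternatives, among them DESeq2 (-0.50, adjusted p = 0.0262), no filter on low counts (-0.51, adjusted p = 0.0464) and the fit without the third oleic acid library (-0.63, adjusted p = 0.00507). The other 4 were the fit without the pair that stands apart, the replicate block, the length trend removed, and both of these together, at adjusted p from 0.00373 to 0.0358.

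Among 17 tested of 19 other genes of NADPH supply, 0 were called in edgeR for the averaged FAC effect, with a list median of 0.12. All 25 genes of the thioredoxin and peroxiredoxin list were tested, 1 fell and 0 rose, with a list median of 0.12. The 1 was TXNIP, the inhibitor of thioredoxin, which fell by 0.80 (SE 0.19, adjusted p = 0.0220). TXNIP lost its call without the first or the third FAC library, the second vehicle library or the second oleic acid library, at adjusted p from 0.0561 to 0.0652. TXN, thioredoxin, differed by 0.34 (SE 0.21, adjusted p = 0.366) and PRDX1, a peroxiredoxin, by 0.32 (SE 0.17, adjusted p = 0.265). Of 5 ABCC transporters tested 0 were called, with a list median of 0.03. Among 12 other quinone and aldehyde reductases, CYB5R1, of the cytochrome reductase family, fell by 0.49 (SE 0.10, adjusted p = 0.0112) and was the 1 called, in all 19 alternatives, with a list median of 0.11. In edgeR, CYB5R1 was not called in FAC against vehicle (-0.54, adjusted p = 0.102), though 2 of the 19 alternatives called it. Nor was it called in oleic acid + FAC against oleic acid (-0.43, adjusted p = 0.157).

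**Figure D5:**
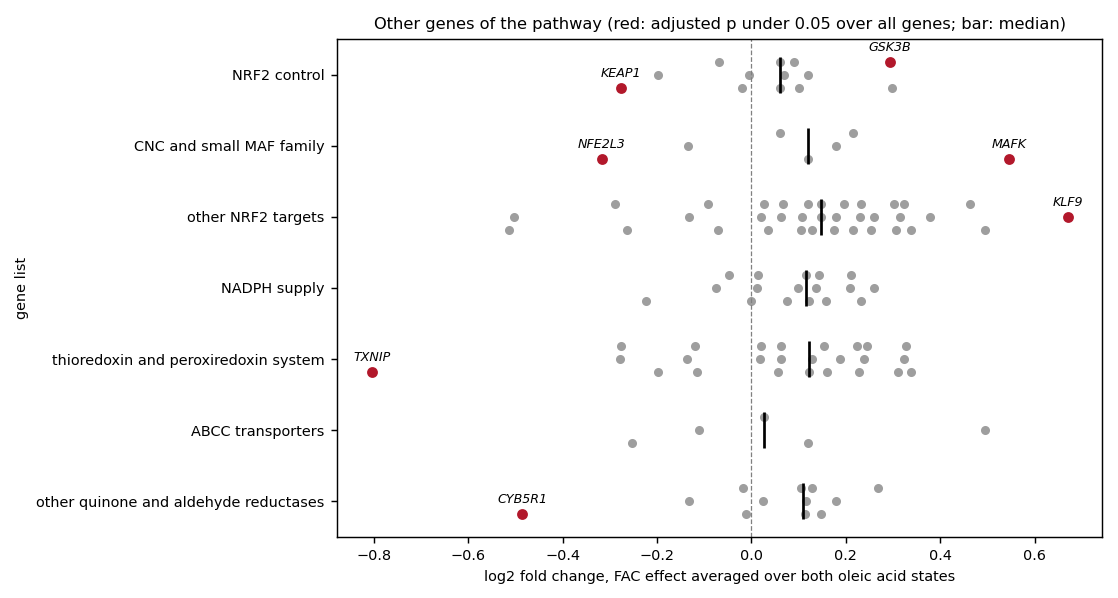
Log2 fold change with FAC averaged over both oleic acid states (horizontal axis) for each tested gene of the 7 pathway lists, 1 row per list, with a bar for the median and genes that passed the test in red. The medians lie between 0.03 and 0.15, and the red genes are KEAP1, GSK3B, NFE2L3, MAFK, KLF9, TXNIP and CYB5R1.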

How the data were processed

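HEK293 RNA, with an integrity number of 10 per the labels, was sequenced after poly-A selection in 12 libraries. Per the submitters' processing notes, the tools were kallisto 0.46.1, bcl2fastq 2.19 and sleuth 0.30.0, and the build was GRCh38.p12 (hg38). The deposited tables hold estimated counts per gene symbol and per transcript, per the labels, and their values were whole numbers, so rounding changed none. Lengths and positions came from GENCODE 29, in which 89.9% of transcripts matched. Whether counting used strand is not given in the sources used here, so reads of NQO1, TXNRD1 and MAFG and of the antisense genes annotated across them cannot be told apart.

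All 12 libraries entered 1 edgeR 4.0.16 quasi-likelihood fit (R 4.3.3; filterByExpr, TMM, 1 mean per group, two-sided F tests), with Benjamini-Hochberg adjustment over all 14209 genes and calls at adjusted p under 0.05. The 8 comparisons were the pairs of groups but FAC against oleic acid, both averaged effects and the interaction. Intervals are 95% and not adjusted for the number of genes. The labels do not say that replicates were separate cultures, so a p-value here reflects only how these libraries spread, which may be technical. Floors cover counting error only, as reads carry no molecular identifiers. Alternatives were DESeq2 1.42.0, no filter, RLE scaling, a replicate block, each library left out, the third of oleic acid and of oleic acid + FAC left out together, and a length trend removed (with and without the block). The replicate numbers come from the labels and were taken to pair libraries, among the groups compared, only between oleic acid and oleic acid + FAC (correlations of deviations 0.30 to 0.61) and between FAC and oleic acid + FAC (0.22 to 0.34), where all 3 same-numbered pairs exceeded 0.1. The fits were tested on simulated counts with no length trend and no shared deviation of same-numbered libraries, so that test does not cover these features. Its set differences were all larger than the averaged FAC differences of the 8 members tested. The named genes are the members, TFRC, 10 pathway genes whatever their result, list genes past the test (at most 4 per list and comparison) and the gene most like each member. Not all of these are reported here. The members and lists were chosen with earlier results of these data known.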

Additional observations from a re-analysis of the deposited data

How the results depend on the processing

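No result reversed. SRXN1 kept its call for the averaged FAC effect in all 19 alternatives, at -0.50 to -0.40. The number of members called there was 2 without the pair of libraries that stand apart and 1 to 2 when 1 library was left out. It was 4 in the fit with the length trend removed and a replicate block added (SRXN1, TXNRD1, PGD and TALDO1). That fit called 3742 of the 14209 genes. For FAC against vehicle 1 member was called with the replicate block and 1 with the length trend removed and the block added. For oleic acid + FAC against oleic acid the number was 1 under each of DESeq2, the block, the length trend removed, and both together. For oleic acid + FAC against vehicle it was 1 with DESeq2, 2 with the block, 2 with length and block, and 0 to 1 with 1 library left out. The other comparisons of members, and those of their transcripts, stayed at 0 to 0 with 1 library left out, and DESeq2 called 1 transcript with FAC.

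Counts over all genes moved as well, and the counts of members above are to be read beside them. FAC against vehicle (169) gave 505 with DESeq2, 431 with the replicate block, 672 without the pair, 445 with the length trend removed, 1118 with length and block, and 27 (without the third vehicle library) to 299 (without the third oleic acid library) with 1 library left out. The averaged FAC effect (1244) gave 2211 with the block, 2143 without the pair, 2283 with length, 3742 with length and block, and 738 (without the second vehicle library, with 765 and 764 without the third of vehicle and of FAC) to 1810 (without the third oleic acid library). Oleic acid + FAC against oleic acid (314) gave 775 with DESeq2, 740 with the block, 803 with length, 1979 with both, and 55 (without the second oleic acid + FAC library) to 449 (without the third oleic acid library). Oleic acid + FAC against vehicle (436) gave 1248 with DESeq2, 1528 with the block, 704 without the pair, 1070 with length, 2477 with length and block, and 62 (without the third vehicle library) to 1026 (without the third oleic acid library). Oleic acid + FAC against FAC gave 1 with DESeq2 and 1 with length and block, and the averaged oleic acid effect gave 3 with DESeq2, 1 with the block and 2 with length and block. The remaining counts stayed at 0 with 1 library left out. The cause was not tested.

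For the pairs of groups whose numbers pair the libraries (oleic acid + FAC with oleic acid or with FAC), the block changed no member's call but that of SRXN1. Elsewhere the libraries share only a number. Deviations of all 18 same-numbered pairs correlated at -0.07 to 0.61, with 13 over 0.1, and 11 of the 12 libraries correlated best with one of their own number, a hint from the data and not the design. Counts of NQO1 and OSGIN1 limit what can be seen in those genes.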
